A study of Mus musculus with 170 samples.

Results

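Ventricular genes varied widely between single cardiomyocytes (CMs) of mouse hearts that had lost Dgcr8. Here the cKO CMs with the highest ventricular gene expression (high cells) were set against those with the lowest (low cells). The cells were chosen by measured values in 2 steps. A cell first had to reach a mean log2(TPM + 1) of 8.5 over 13 genes of the contractile apparatus (Tnnt2, Myl4, Myl7, Actc1, Tnnc1, Tnni1, Myh6, Ttn, Actn2, Ryr2, Nebl, Smpx and Csrp3), and 68 of 69 cKO cells did. Within each of 2 sequencing batches, the 34 cells that passed were then ranked by a score, the mean log2(TPM + 1) of 5 ventricular genes (Myl2, Myl3, Myh7, Irx4 and Hey2). The 11 highest and the 11 lowest cells of each batch were joined into 22 high and 22 low cells, which make up 44 of the 143 cells of the series. The remaining 24 cKO cells lie between them and are called middle cells.

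Cells came from the ventricular part of E9.5 heart tubes of C57BL/6 embryos, were picked one by one with a mouth pipette and were amplified by Smart-seq2, a full-length cDNA method. The cKO cells are labelled Mesp1Cre/+; Dgcr8-/-, and by the study's methods they carried Dgcr8 loxP/loxP alleles and the Rosa26 mT/mG/+ reporter. Cre from the Mesp1 locus acts in early mesoderm, so the deletion covered the whole heart lineage and not only CMs. Control cells, labelled wild type, carried the same floxed alleles and the reporter without Cre. Cells whose reporter transcripts contradicted their genotype had been left out by the authors. No embryo is named for any cell, so all cKO cells are 1 sample and cells are not replicates. The contrast is therefore a description without a test, and every SD below is the scatter across cells.

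The embryonic heart tube is patterned into an inflow part, atria, ventricles and an outflow tract. Ventricular CMs turn on Myl2, Myl3 and Myh7, which encode the ventricular myosin light chains and the slow myosin heavy chain, while the transcription factors Irx4 and Hey2 hold ventricular identity and keep atrial genes low. Atrial identity depends on the orphan nuclear receptors Nr2f1 and Nr2f2, and Tbx5 is high in the atria and inflow and graded into the ventricle. Dgcr8 is the RNA-binding partner of Drosha, with which it cuts primary microRNA transcripts.

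The ranking genes are described first, without support drawn from them, because they set the groups. Myl2, the ventricular regulatory light chain (chromosome 5, 122100951 to 122113472, GRCm38), had a lowest, median and highest log2(TPM + 1) of 9.62, 12.89 and 14.78 in high cells and of 2.18, 5.48 and 12.54 in low cells. Its mean was 12.55 ± 1.27 (SD, n = 22) against 5.96 ± 2.75 (n = 22), a difference of 6.60, with 4.52 in batch 1 and 8.67 in batch 2. The groups overlapped for Myl2 only through batch 1, where low cells reached 12.54. In batch 2 no low cell passed 5.57 and no high cell was under 9.62. Myl2 transcript was detected in all 22 low cells, with a median of 7.97 in batch 1 and 3.74 in batch 2.

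Myl3, the ventricular essential light chain, averaged 11.28 ± 0.98 in high and 7.73 ± 2.83 in low cells. Myh7, the slow heavy chain, averaged 10.49 ± 0.69 and 7.73 ± 2.00. Salmon shares reads between similar transcripts, and Myh7 and Myh6 are close copies, so their split is uncertain. Both transcription factors were near absence in low cells. Irx4 was detected in 18 of 22 high cells (81.8%, exact 95% CI 59.7 to 94.8) and in 5 of 22 low cells (22.7%, 7.82 to 45.4), with means of 4.01 ± 2.92 and 0.32 ± 1.08. Hey2 was detected in 18 high cells and in 4 low cells (18.2%, 5.19 to 40.3), and its highest value among low cells was 0.39 against a median of 5.57 among high cells. These intervals cover counting error only.

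**Figure D1:**
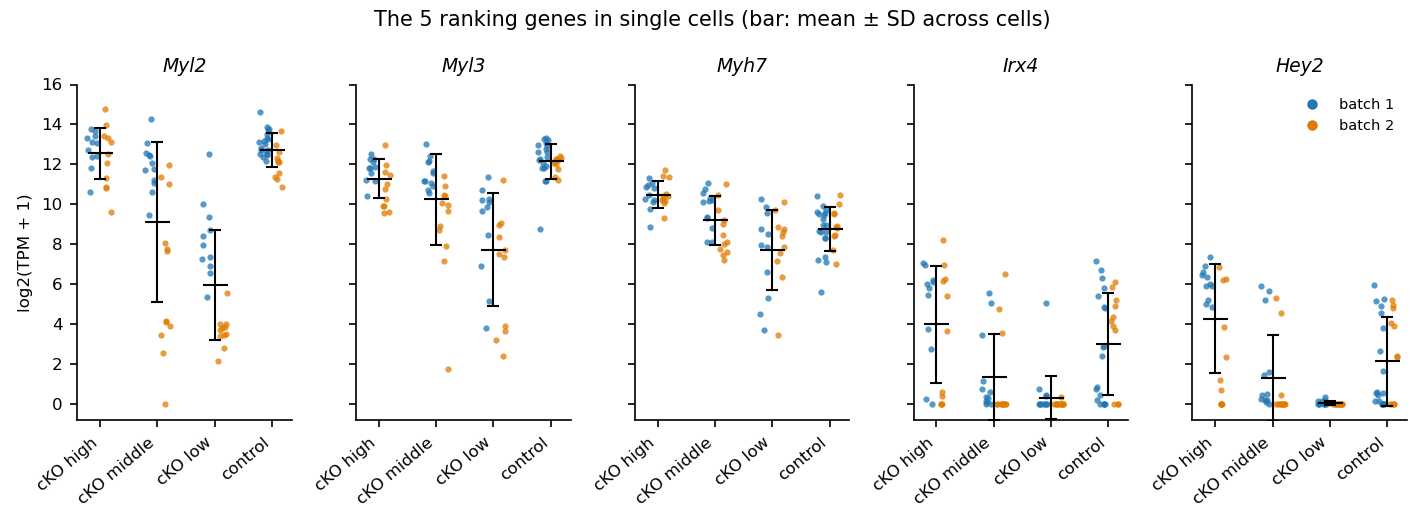
Log2(TPM + 1) of the 5 ranking genes in each cKO high (n = 22), middle (n = 24) and low (n = 22) cell and in each control cell past the gate (n = 30), coloured by batch, with the mean ± SD. The groups were cut on these genes; Myl2 of the low cells splits by batch, with batch 2 cells at or below 5.57, and Hey2 does not pass 0.39 in any low cell.

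When each of these genes was removed and the cells were ranked on the other 4, it still followed them. Myl2 then averaged 11.15 ± 3.91 in high and 6.60 ± 2.95 in low cells, a difference of 4.55, with 4.06 in batch 1 and 5.03 in batch 2. The difference was 2.50 for Myl3, 2.60 for Myh7, 3.10 for Irx4 and 3.39 for Hey2, and each was above 2 in both batches. Across the 34 cells of a batch, Spearman's rho between pairs of ranking genes ran from 0.31 to 0.75 in batch 1 and from 0.19 to 0.64 in batch 2. These values describe the ranking and lend it no support, and cells of a batch are not replicates.

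The scores at the cuts lay close together. In batch 1 the lowest high cell scored 8.12 beside a middle cell at 8.10, and the highest low cell scored 6.36 beside a middle cell at 6.51. In batch 2 the cuts fell between 6.31 and 6.25 and between 4.24 and 4.09. The lowest cKO cell past the gate had a gate score of 8.77, and the cell left out had 7.49. A ranking cut at fixed counts can give such neighbours with or without separate classes, so whether high and low cells are classes was not tested. Scores ran from 2.62 to 9.77 in batch 1 and from 2.87 to 9.72 in batch 2, but both cuts lay lower in batch 2.

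The mean of the 13 contractile genes of the gate, which every cell had to express, was 10.63 ± 0.43 in high and 10.45 ± 0.54 in low cells. Myl7, the atrial regulatory light chain that the whole early heart tube expresses, averaged 14.51 in both, and Tnnc1, cardiac troponin C, differed by 0.29. Of the 13 genes, Csrp3, a Z-disc LIM protein, had the lowest difference (-0.65) and Smpx, a small muscle protein, the highest (1.26), which came from batch 1 alone (2.52, against -0.01 in batch 2). Myh6, the atrial heavy chain, was 7.84 ± 1.33 in high and 8.49 ± 1.78 in low cells. The gate used these levels, which limits how far they could vary.

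Differences of genes outside the ranking were only weakly related between the batches. Among 13727 genes detected in more than 10 cKO cells past the gate, the differences in batch 1 and batch 2 had a Pearson r of 0.14 across genes, which are not independent, and 50.95% of genes had one sign in both. The median difference of all genes was -0.06, with 0.14 in batch 1 and -0.26 in batch 2. Detected genes per cell moved the same way, with medians of 10226 in high and 9732 in low cells of batch 1 and of 7319 and 8159 in batch 2, and their part in the differences was examined only through the alternatives of the closing section. A gene is called past the fold below where it was at least 1 log2 unit higher, or lower, in high cells with batches joined and in each batch alone. By that rule 280 genes were higher, 2.04% of those measured, and 346 were lower, 2.52%. In batch 1 alone 2350 genes were higher and 897 lower by at least 1, and in batch 2 alone 773 and 2939, so the demand for both batches set these counts.

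**Figure D2:**
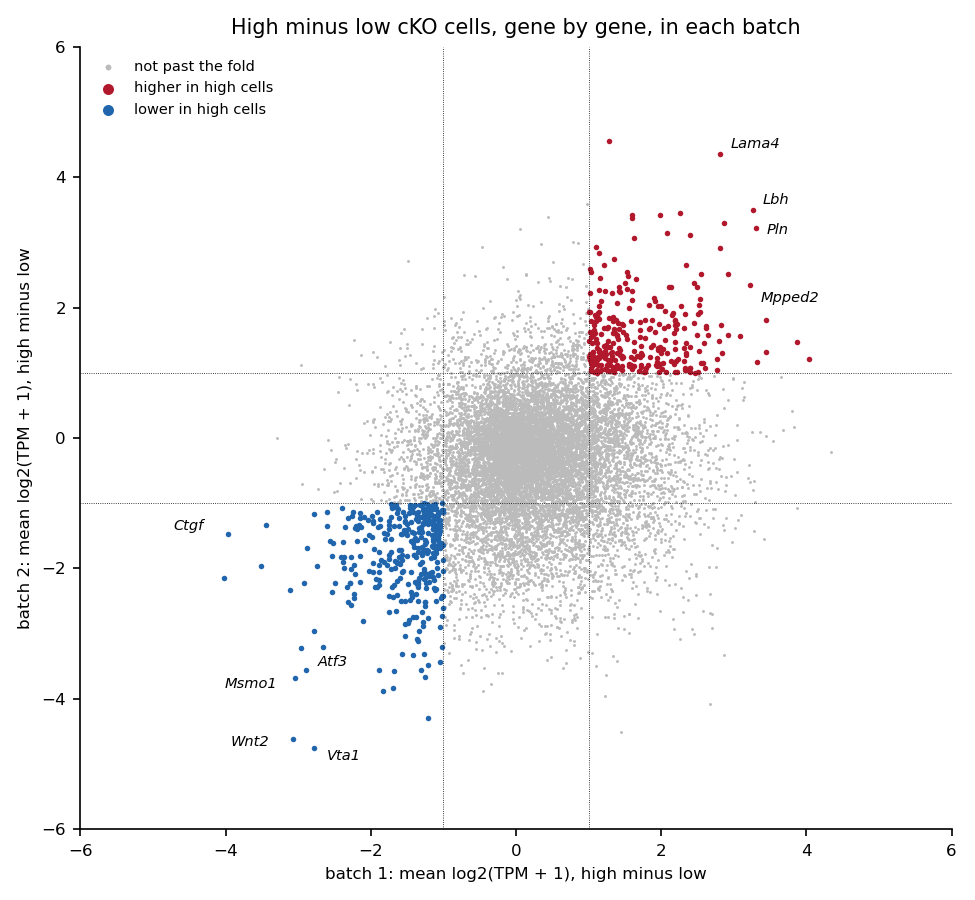
Difference of mean log2(TPM + 1), high minus low cells, in batch 1 (x axis) and batch 2 (y axis) for 13727 genes, with dotted lines at 1 and -1. Red points are the 280 genes higher and blue points the 346 genes lower past the fold; Lama4, Lbh, Pln and Mpped2 lie far out on the high side and Wnt2, Vta1, Msmo1 and Atf3 on the low side, while Ctgf was lower mainly in batch 1.

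Of the genes past the fold, the 12 with the largest difference in their weaker batch were examined on each side. High cells carried more Lbh, Pln, Ccnd2, Lama4, Lmod3, Mtch1, Cdkn1c, Trdn, Abtb2, Mpped2, Ccdc69 and Bcap29, by 2.40 to 3.58. Lbh, a transcription cofactor first described in limb bud and heart (chromosome 17, 72918305 to 72941947), ran from 3.53 to 8.47 with a median of 7.32 in high cells and from 0.00 to 7.75 with a median of 3.15 in low cells. It averaged 6.80 ± 1.37 against 3.42 ± 2.53, a difference of 3.26 in batch 1 and 3.49 in batch 2. High and low cells overlapped for each of the 12, and 1 to 5 of the 22 low cells passed the median of the high cells.

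Pln, phospholamban, the inhibitor of the sarcoplasmic reticulum calcium pump (chromosome 10, 53337667 to 53345987), had a lowest, median and highest value of 0.00, 5.98 and 9.22 in high cells and of 0.00, 0.26 and 7.20 in low cells. It averaged 4.45 ± 3.19 and 1.18 ± 2.31, and the difference was 3.31 in batch 1 and 3.23 in batch 2. A TPM of at least 1 was reached by 16 of 22 high cells (72.7%, 49.8 to 89.3), 12 of 24 middle cells and 4 of 22 low cells (18.2%, 5.19 to 40.3). Its detection also differed by batch. Pln was detected in 11 of 11 high and 10 of 11 low cells of batch 1. In batch 2 these counts were 7 of 11 and 3 of 11. A value of 0 may be a missed transcript, so no on or off state is read from them. Trdn, triadin, which ties the calcium release channel to calsequestrin, averaged 4.07 ± 2.19 against 1.31 ± 1.95 and was detected in 20 high and 10 low cells.

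Lama4, a laminin chain of basement membranes, had the largest pooled difference of the 12 (3.58). It ran from 0.00 to 8.64 with a median of 6.53 in high cells, and from 0.00 to 6.79 with a median of 0.41 in low cells. Ccnd2, a G1 cyclin, averaged 7.12 ± 1.54 in high and 4.04 ± 2.87 in low cells, and Cdkn1c, the CDK inhibitor p57, averaged 6.81 ± 2.34 and 4.09 ± 2.57. Mpped2, a metallophosphoesterase, averaged 7.92 ± 2.14 and 5.13 ± 3.18. Lmod3, a leiomodin of muscle actin filaments, was 2.86 higher.

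**Figure D3:**
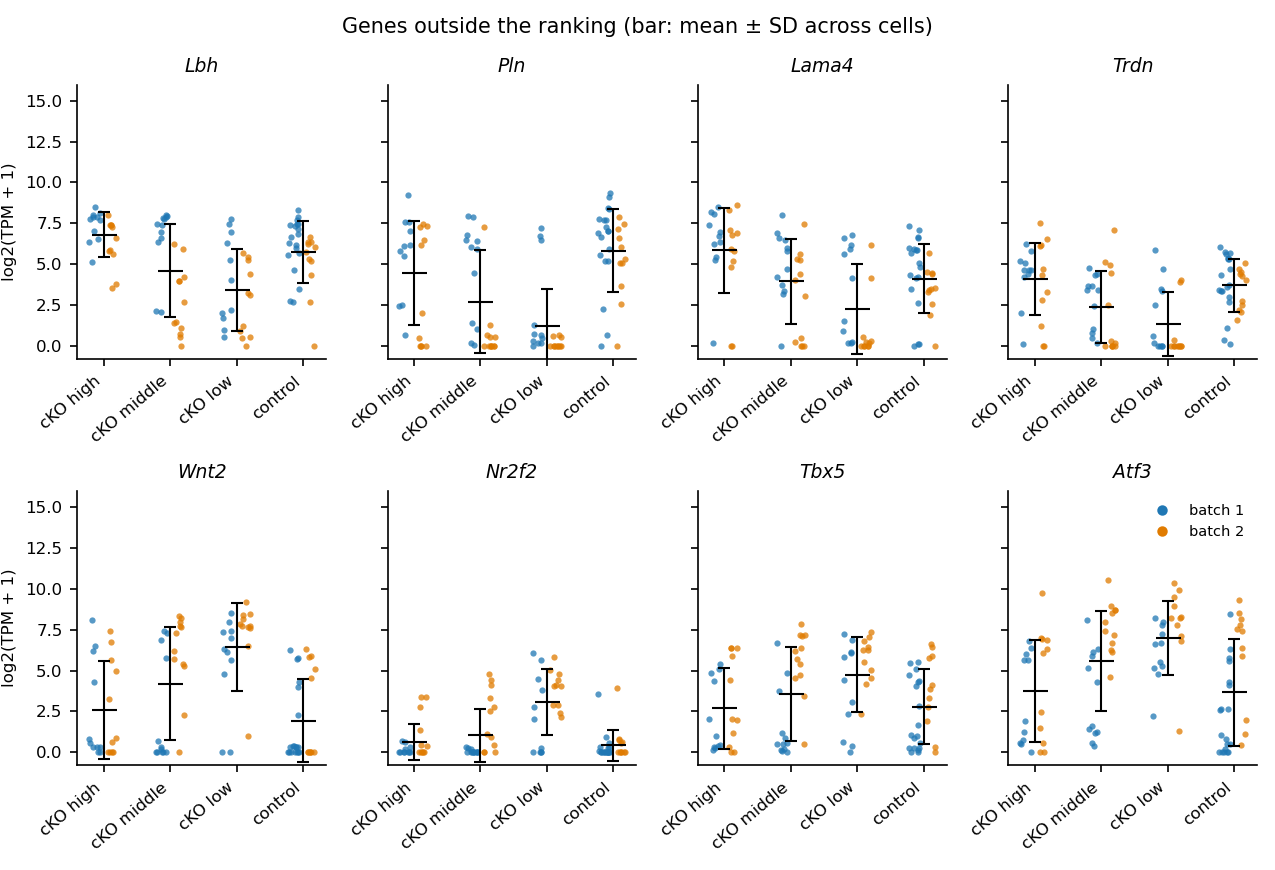
Log2(TPM + 1) of 8 genes outside the ranking in each cKO high, middle and low cell and each control cell past the gate, coloured by batch, with the mean ± SD. Lbh, Pln, Lama4 and Trdn descend from high to low cells and Wnt2, Nr2f2, Tbx5 and Atf3 ascend, with middle cells between, and high and low cells overlap in every panel.

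On the other side, high cells carried less Wnt2, Msmo1, Thumpd3, Atf3, Vta1, Chst12, Rasl11b, Dusp1, Slu7, Egr1, Mrpl10 and Nup35, with differences of -3.85 to -2.30. Wnt2, a Wnt ligand known from the inflow region of the early heart (chromosome 6, 17988940 to 18030585), had the largest. It ran from 0.00 to 8.12 with a median of 0.70 in high cells and from 0.00 to 9.20 with a median of 7.53 in low cells. Its means were 2.59 ± 2.99 and 6.44 ± 2.69, and the difference was -3.07 in batch 1 and -4.63 in batch 2. A TPM of at least 1 was found in 20 of 22 low cells (90.9%, 70.8 to 98.9), 15 of 24 middle cells (62.5%) and 9 of 22 high cells (40.9%, 20.7 to 63.6). Nearly every low cell expressed Wnt2, but so did a part of the high cells.

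The other genes of this side had varied roles. Msmo1, an enzyme of cholesterol synthesis, averaged 3.76 ± 2.98 in high and 7.12 ± 2.16 in low cells. Rasl11b, a small GTPase-like protein, averaged 5.30 ± 3.04 and 8.24 ± 1.55 and was detected in every low cell. Vta1, an endosomal sorting protein, differed by -3.77, and Chst12, a chondroitin sulfotransferase, by -2.87. Thumpd3, Slu7, Mrpl10 and Nup35 belong to tRNA modification, splicing, the mitochondrial ribosome and the nuclear pore, and differed by -3.09, -2.42, -2.41 and -2.35. Atf3, Dusp1 and Egr1 are immediate early genes and are taken up with their list below.

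Promoters to print were looked up for a chosen set of genes only (Lbh, Pln, Ccnd2, Lama4, Wnt2, Nr2f2 and Tbx5). Those of Lbh, Pln and Wnt2 had a RefSeq start close to the main start of the gene and are shown. The letters upstream of genes that moved in opposite directions can thus be read. Each run covers 250 bases before to 50 bases after the start (GRCm38.p6, 5′ to 3′ on the gene's strand), at chr17:72918055-72918354 (plus strand), chr10:53337436-53337735 (plus strand) and chr6:18030396-18030695 (minus strand). The Wnt2 start lies 140 bases from that of GENCODE.
Lbh: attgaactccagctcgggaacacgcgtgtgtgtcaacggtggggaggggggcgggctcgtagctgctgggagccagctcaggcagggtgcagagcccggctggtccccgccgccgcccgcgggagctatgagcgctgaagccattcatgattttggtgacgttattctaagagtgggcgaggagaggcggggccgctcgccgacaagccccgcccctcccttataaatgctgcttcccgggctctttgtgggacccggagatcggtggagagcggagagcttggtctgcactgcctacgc
Pln: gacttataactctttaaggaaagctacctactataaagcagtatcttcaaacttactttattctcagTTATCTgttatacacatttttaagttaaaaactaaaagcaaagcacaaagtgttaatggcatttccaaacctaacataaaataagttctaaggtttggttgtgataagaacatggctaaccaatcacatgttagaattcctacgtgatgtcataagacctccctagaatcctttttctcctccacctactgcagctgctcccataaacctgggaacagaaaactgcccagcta
Wnt2: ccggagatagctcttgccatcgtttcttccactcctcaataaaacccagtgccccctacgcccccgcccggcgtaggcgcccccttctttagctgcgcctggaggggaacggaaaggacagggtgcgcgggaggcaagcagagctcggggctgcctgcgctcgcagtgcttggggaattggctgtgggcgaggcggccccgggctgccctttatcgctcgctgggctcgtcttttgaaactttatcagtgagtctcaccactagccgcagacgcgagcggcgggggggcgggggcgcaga
Capitals mark matches, on either strand, to any of 5 motifs that do not overlap each other in these runs. The motif of T-box factors was searched as AGGTGT and that of GATA factors as AGATAA. An E-box that Hey proteins bind was searched as CACGTG. The core of nuclear receptor sites was searched as AGGTCA, and MEF2 by its consensus. Only Pln held one, a GATA match on the opposite strand. Shares were taken over 12444 RefSeq promoters of the same length, 1 per gene, of which 152 belonged to higher and 182 to lower genes past the fold. The T-box motif occurred in 13.02% of all, 6.58% of the higher and 7.14% of the lower ones. The GATA motif occurred in 9.94%, 5.92% and 4.95%, and the E-box in 8.09%, 9.21% and 12.1%. The nuclear receptor core occurred in 14.3%, 13.8% and 10.4%, and the MEF2 consensus in 2.83%, 1.32% and 2.75%. Among the 6404 of these promoters whose gene was tested, the shares were 10.7%, 5.82%, 10.4%, 11.4% and 1.67% in the same order of motifs. No match in this window says only that these letters are not in it.

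Ventricular genes that took no part in the ranking were higher in high cells as a group, which is a description only. Their list was chosen with earlier results of these data known. Lbh, Pln and Mpped2 are also leading genes, picked above for their difference, and Pln is counted again in the calcium list below. The list thus lends no separate support. Of 13 listed, 11 were measured, their median difference was 1.20 (0.94 in batch 1, 1.02 in batch 2) beside -0.06 for all genes, and 4 were past the fold on the high side (Irx2, Pln, Lbh and Mpped2) beside 2.04% of all genes, with none on the low side. Irx2, an Iroquois factor of the Irx4 family, was detected in 9 of 22 high cells, where it reached 8.82, and in 4 of 22 low cells, where it did not pass 1.15. Irx1 had a difference of 0.48, and Irx3 and Irx5 were not measured because too few cells held them. Mycn, which drives growth of the compact wall, differed by 0.90, and Fhl2, a LIM protein of the sarcomere, by 1.20 with nearly equal medians (6.18 and 6.20). Tbx20 (-0.37) and Hand1 (-0.06) did not follow the group, and Hand1 was detected in 11 high and 13 low cells.

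Atrial genes did not move as one group. Of 15 listed, 11 were measured, with a median difference of -0.39 that came from batch 2 (-1.28, against -0.04 in batch 1). Nr2f2, Tbx5 and Stard10 were lower past the fold, 3 of 11 beside 2.52% of all genes, and Nppa and Myl1 were higher, 2 of 11 beside 2.04%. Sln, sarcolipin, was at 0 in every high, middle and low cell, and Gja5, connexin 40, differed by -0.01. The ion channel genes Kcnj3 and Kcna5 were detected too rarely to be measured, and Kcnj5 differed by -0.95.

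Nr2f2 (chromosome 7, 70351944 to 70366735) ran from 0.00 to 3.40 with a median of 0.00 in high cells and from 0.00 to 6.08 with a median of 3.34 in low cells. Its means were 0.62 ± 1.10 and 3.08 ± 2.02, and the difference was -2.11 in batch 1 and -2.81 in batch 2. In batch 2 all 11 low cells held it, at 2.18 or more. Its relative Nr2f1 reached 1.43 at most in high cells and 7.49 in low cells, a difference of -1.38 that in batch 1 was -0.84, short of the fold. Either receptor had a TPM of at least 1 in 18 of 22 low cells (81.8%, 59.7 to 94.8), 10 of 24 middle cells (41.7%) and 7 of 22 high cells (31.8%, 13.9 to 54.9). Together with Irx4 or Hey2 it was found in 6 of 22 high and 6 of 24 middle cells. Low cells were chosen for little of those ranking genes, and only 1 of them had either at that level, so co-occurrence is not given for them.

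Tbx5 averaged 2.69 ± 2.49 in high and 4.76 ± 2.32 in low cells, with differences of -1.70 and -2.43 in the batches. Stard10, a lipid transfer protein, was detected in 5 high and 11 low cells. In contrast, Nppa, natriuretic peptide A, was 1.11 higher in high cells (9.74 ± 4.03 against 8.63 ± 4.06). Its range ran from 0.00 to 14.90 in high and from 3.22 to 15.26 in low cells, so the groups overlapped almost wholly. Myl1, a light chain of embryonic heart and skeletal muscle, averaged 10.60 ± 1.43 and 8.69 ± 3.18.

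**Figure D4:**
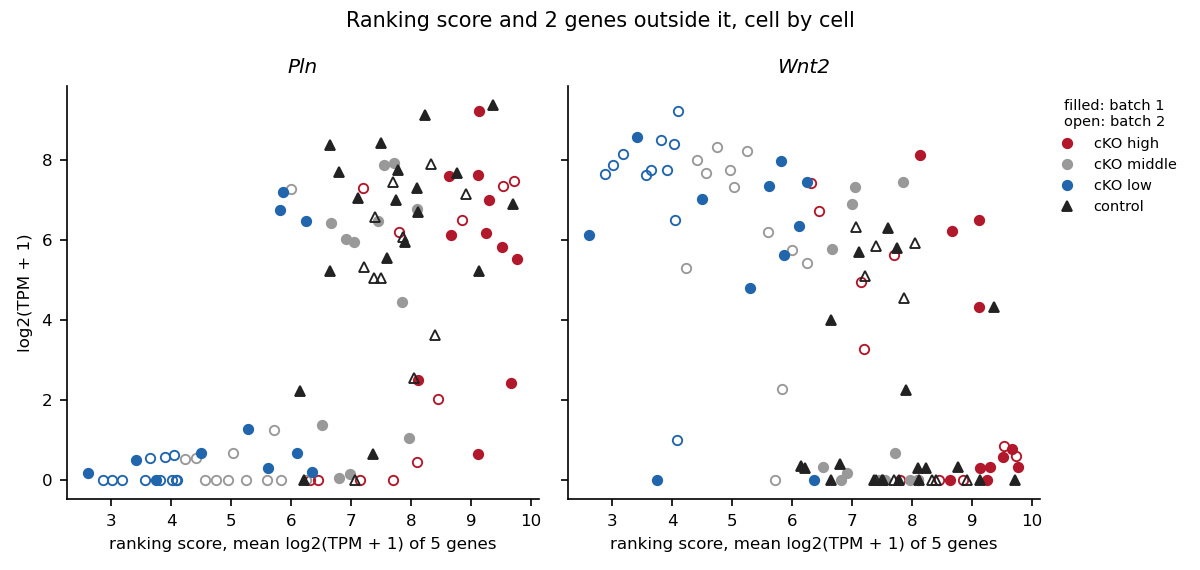
Log2(TPM + 1) of Pln and Wnt2 (y axes) against the ranking score (x axis, mean log2(TPM + 1) of the 5 ranking genes) in single cells, filled for batch 1 and open for batch 2. Pln reaches a TPM of 1 in 16 of 22 high and 4 of 22 low cells, and Wnt2 does so in 20 of 22 low cells but also in 9 of 22 high cells and 11 of 30 control cells.

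Genes of the same side tended to be found in the same cells. Within a batch of 34 cells, all 15 pairs among Lbh, Pln, Lama4, Trdn, Mpped2 and Ccnd2 had a Spearman rho above 0, with a median of 0.27 in batch 1 and 0.29 in batch 2. All 15 pairs among Wnt2, Nr2f2, Tbx5, Rasl11b, Msmo1 and Atf3 also did, with medians of 0.31 and 0.44. Of the 36 pairs with 1 gene from each side, 3 in batch 1 and 1 in batch 2 were above 0, and the medians were -0.22 and -0.33. The genes had been picked for their difference along the score, and cells are not replicates, so these values are descriptive.

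Of 19 genes listed for calcium and ion handling, 16 were measured, with a median difference of 0.46 (1.15 in batch 1, 0.28 in batch 2), and Pln, Trdn, Hrc and Cacna1c were past the fold on the high side, 4 of 16 beside 2.04% of all genes, with none on the low side. This list too was chosen with earlier results of these data known. Pln and Trdn are also leading genes, and Pln is counted in the ventricular list as well. Hrc, a calcium-binding protein of the sarcoplasmic reticulum, averaged 4.66 ± 2.06 in high and 2.70 ± 2.32 in low cells. Cacna1c, the pore of the L-type calcium channel, averaged 4.39 ± 1.90 and 2.59 ± 2.50, but 1 low cell held 10.78, above every high cell, and by the ratio of mean TPM the difference turned to -1.29. The calcium pump Atp2a2 differed by 0.01 and the exchanger Slc8a1 by -0.40, and Casq2, cardiac calsequestrin, was detected in 2 high cells and 1 low cell.

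Beyond the gate, 25 of 26 listed sarcomere genes were measured. Their median difference was -0.08, and 4 of 25 were past the fold on the high side beside 2.04% of all genes. Acta1, skeletal actin, which the fetal heart also uses, averaged 11.35 ± 1.62 in high and 9.35 ± 3.18 in low cells, with 1.99 and 2.02 in the batches. Tnni3, the cardiac troponin I that replaces Tnni1 as the heart matures, averaged 8.95 ± 2.83 and 7.26 ± 3.27. Trim63, a ubiquitin ligase of muscle, was 2.38 higher. Tpm1, tropomyosin, differed by 0.06 and Mybpc3, myosin-binding protein C, by 0.75.

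Cardiac transcription factors did not separate the cells as a class. All 20 listed were measured, with a median difference of 0.13 (0.61 and -0.11 in the batches). Only Gata6 (higher) and Tbx5 (lower) were past the fold, 1 of 20 each beside 2.04% and 2.52% of all genes. Gata6 averaged 4.12 ± 1.97 in high and 2.78 ± 2.21 in low cells. Nkx2-5, the core cardiac homeobox factor, was 7.07 ± 1.81 and 6.61 ± 1.22. Gata4 changed sign between batches (0.55 and -1.51), as did Meis1 and Mef2a. Trabecular genes had a median of 0.22 over 11 measured genes. Nppa was the only 1 past the fold, 1 of 11 beside 2.04% of all genes, and Bmp10 was detected in 6 high and 4 low cells. The outflow and second heart field list had a median of -0.01 over 12 measured genes. Cxcl12 (1.87) and Wnt11 (1.79) were higher past the fold, 2 of 12 beside 2.04% of all genes. Cxcl12 was detected in 11 high and 10 low cells, with medians of 0.06 and 0.00, and Isl1 in 5 high and 5 low cells. Pacemaker and atrioventricular canal genes gave 7 measured genes, none past the fold, between -0.66 (Bmp2) and 0.49 (Cacna1d).

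Immediate early genes, which respond within minutes to growth factors, stress and tissue dissociation, were lower in high cells. Of 19 listed, 17 were measured with a median difference of -1.32 (-0.79 in batch 1, -1.84 in batch 2). Of these, 14 were below 0 in both batches, beside 50.95% of all genes with one sign, up or down, in both. The share of all genes below 0 in both was not taken. Past the fold were 7 on the low side (Fos, Egr1, Atf3, Dusp1, Klf2, Klf6 and Btg2), beside 2.52% of all genes, and none on the high side. Atf3 ran from 0.00 to 9.74 with a median of 4.05 in high cells and from 1.32 to 10.36 with a median of 7.49 in low cells, and it averaged 3.77 ± 3.13 and 7.00 ± 2.26. Fos averaged 6.60 ± 2.71 and 8.57 ± 2.85, while Jund was 1.01 higher in high cells. Within batch 1 the mean of the list had a rho of 0.47 with Wnt2 and 0.39 with Nr2f2, and within batch 2 of 0.20 and 0.11. The part of this list in the other differences was not tested.

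Cell cycle lists differed in the sign of their medians, and not under every alternative. Among 20 genes of DNA replication the median difference was 0.62 (0.69 and 0.53 in the batches), with Mcm6, Mcm7, Rrm2 and Cdc6 past the fold on the high side, 4 of 20 beside 2.04% of all genes. Over the alternatives this median ran from 0.02 to 0.95. Mcm6, a subunit of the replicative helicase, averaged 6.09 ± 1.59 in high and 4.08 ± 2.90 in low cells. Among 23 mitotic genes the median was -0.79 (-0.58 and -0.91). Of these, 18 were below 0 in both batches, beside 50.95% of all genes with one sign, up or down, in both. As above, the matching share below 0 was not taken. Kif20a (-1.26) and Ube2c (-1.31) were lower past the fold, 2 of 23 beside 2.52% of all genes. The mean level of the mitotic list was 3.30 in high, 4.57 in middle and 4.03 in low cells, so it did not follow the ranking. With the 8 highest and 8 lowest cells of each batch, its median difference turned to 0.047, and with ranking on Irx4 and Hey2 alone to 0.18. Of 11 genes listed for G1 cyclins, their kinases and inhibitors, 4 were higher past the fold beside 2.04% of all genes. These were the cyclins Ccnd1 (1.94) and Ccnd2 (3.08) and the inhibitors Cdkn1a (1.80) and Cdkn1c (2.71). Mycn, named above with the ventricular list, is counted in this list as well.

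**Figure D5:**
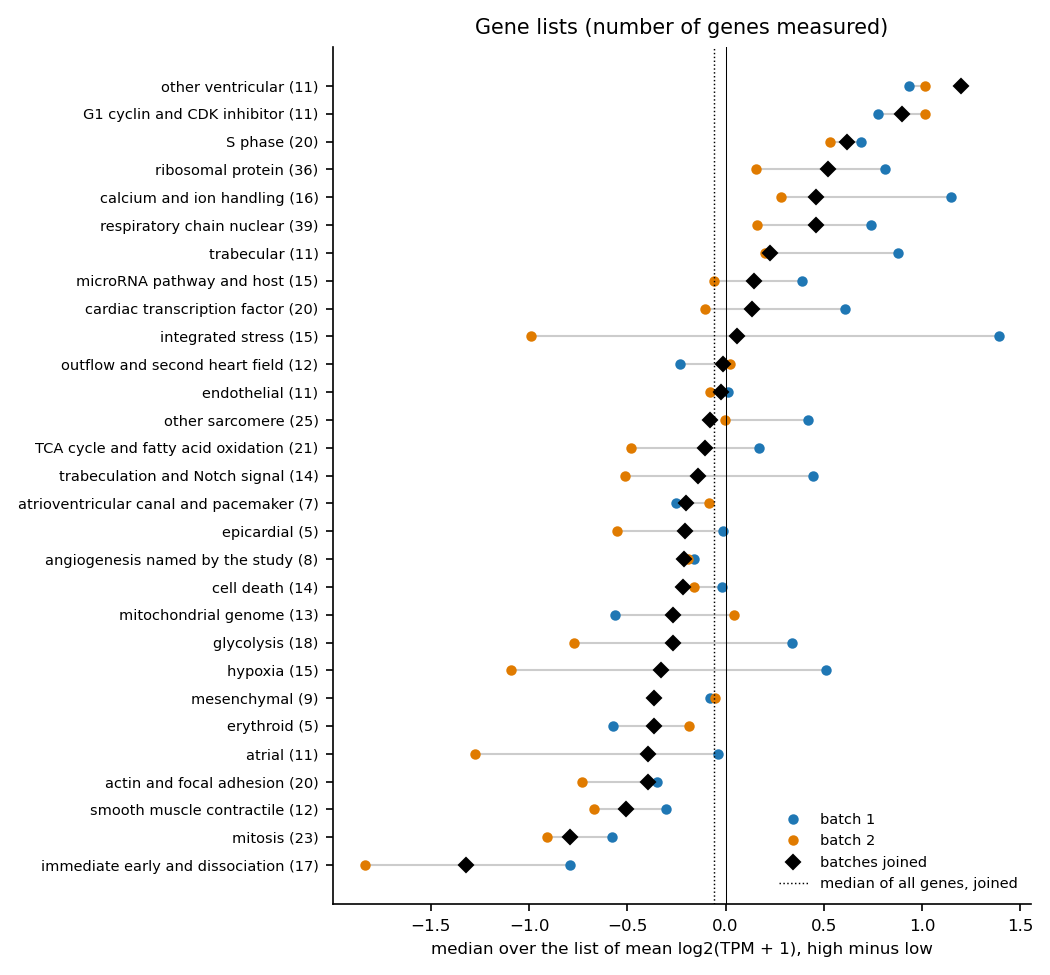
Median over each gene list of the difference in mean log2(TPM + 1), high minus low cells, with batches joined (diamonds) and in each batch (circles), and the number of genes measured in brackets. Other ventricular genes had the highest median (1.20) and immediate early genes the lowest (-1.32); integrated stress, hypoxia and glycolysis genes had opposite signs in the 2 batches.

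Lists of metabolism and stress differed between batches more than between the groups. Integrated stress genes had a median of 1.39 in batch 1 and -0.99 in batch 2, hypoxia genes of 0.51 and -1.09 and glycolysis genes of 0.34 and -0.77. Past the fold were Egln1 (higher) and Adm (lower) of the hypoxia list, 1 of 15 each beside 2.04% and 2.52% of all genes. Asns, asparagine synthetase, had the lowest joined difference of the stress list (-1.49), with 0.42 in batch 1 and -3.40 in batch 2. Ribosomal protein genes had a median of 0.52 with 26 of 36 above 0 in both batches, and nuclear genes of the respiratory chain one of 0.46 with 19 of 39. Among all genes 50.95% had one sign, up or down, in both batches, and the share above 0 in both was not taken. None of either list passed the fold. Of 13 mitochondrially encoded genes, mt-Co2 was higher (1.52) and mt-Atp6 lower (-2.43) past the fold, 1 of 13 each beside 2.04% and 2.52% of all genes. Genes of fatty acid oxidation and the TCA cycle had a median of -0.11 over 21 genes, from -0.64 (Cs) to 0.87 (Acadl), and none passed.

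Actin and focal adhesion genes had a median of -0.40 over 20 genes, with Krt8, a keratin of early CMs, lower past the fold (5.29 ± 3.60 in high, 7.20 ± 2.96 in low cells) and Lmna at 1.16. Smooth muscle genes had a median of -0.51 over 12, with Smtn, smoothelin, lower past the fold (-1.60). Of the 12, 9 were below 0 in both batches, beside 50.95% of all genes with one sign, up or down, in both. Here too the matching share below 0 was not taken. Of 8 angiogenesis genes that the study had named from these cells, Ctgf, a matricellular growth factor, was lower past the fold (6.33 ± 3.20 against 9.05 ± 2.11), with -3.97 in batch 1 and -1.48 in batch 2. Adm2, adrenomedullin 2, was higher (1.29), and the median of the 8 was -0.21. Tgfb2, a signal for cushion formation, was 4.74 ± 2.74 in high and 6.81 ± 2.21 in low cells and the only 1 of 14 trabeculation and Notch genes past the fold. Among cell death genes, Mcl1, an inhibitor of apoptosis, was lower in high cells (-1.41), and Bax differed by 1.10. In the microRNA pathway and host list, Dicer1 was 1.19 higher, the host Mir22hg was lower (-1.36), and Meg3 differed by 0.44 in batch 1 and 3.39 in batch 2. Each list of this paragraph held at most 1 gene past the fold per direction, beside 2.04% of all genes higher and 2.52% lower.

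Markers of other cell classes were detected in both groups, over wide ranges between cells. The summed log2(TPM + 1) of 15 endothelial markers ran from 4.32 to 24.5 (median 10.96) in high and from 1.91 to 22.5 (median 10.2) in low cells, with 14 and 13 of the 15 detected in any cell and Sox18 at 0 throughout. For 14 mesenchymal markers it ran from 3.49 to 29.1 (median 10.2) and from 3.87 to 23.3 (median 13.2), with 12 and 11 detected and Postn and Lum at 0. For 8 epicardial markers the medians were 5.53 and 6.47, with 6 detected in each group, Aldh1a2 and Msln at 0, and ranges of 0.40 to 12.9 and 0.00 to 12.1. For 8 erythroid markers the medians were 2.61 in high and 8.47 in low cells, with ranges of 0.00 to 29.4 and 0.00 to 24.5, 7 detected in each and Slc4a1 at 0 in high cells. No gene of these 4 lists was past the fold. The summed medians of the mesenchymal, epicardial and erythroid markers were higher in low cells. Across the 34 cells of a batch, the mean of the mesenchymal list had a rho with the ranking score of -0.33 in batch 1 and -0.39 in batch 2, and that of the erythroid list of -0.26 and -0.05. The part of these markers in the differences was not tested.

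The middle cells lay between the groups for 82.9% of the 280 genes higher and 82.1% of the 346 genes lower, and for 37.6% of all genes. Genes past the fold were chosen for a gap between the groups, in which a further group falls more often, so nothing is read from these shares. The 12 leading genes of each side all had middle cells between. Lbh averaged 4.60 and Wnt2 4.20 in them.

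Control cells past the same gate gave a reference of the other genotype. Their scores ran from 6.15 to 9.71 with a median of 7.72 (n = 30). Of 22 low cKO cells, 20 scored below every one of these control cells, as did 11 of 24 middle cells and no high cell. In batch 2, where control cells started at 7.07, all 11 low, all 12 middle and 2 of 11 high cells were below. Control means were 12.72 for Myl2, 5.83 for Pln, 1.94 for Wnt2 and 0.42 for Nr2f2, beside 12.55, 4.45, 2.59 and 0.62 in high and 5.96, 1.18, 6.44 and 3.08 in low cells. For these genes, of which Myl2 set the groups, the high cells were nearer to the control cells. For other leading genes the low cells were nearer. Lmod3 averaged 1.21 in control, 3.91 in high and 1.05 in low cells, and Vta1 5.53, 2.50 and 6.27. How many genes fell on each side was not counted, so no general likeness to control cells is read from this. For Myh7 control cells averaged 8.77, between high (10.49) and low cells (7.73). Genotype, embryo, sex and dissection cannot be told apart here.

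The same split was then made in control cells, which the rule had not used, with the upper 14 against the lower 14 by score (9 and 5 a side in the batches). Of the genes higher in cKO high cells, 182 of 280 were also above 0 in this split, beside 65.5% of all genes. Of the lower ones, 100 of 346 (28.9%) were below 0, beside 34.3% of all genes. Control cells covered a narrower range of the score, and the contrast of the cKO cells did not recur in them as a whole. In this split the median difference was 0.72 for the other ventricular list and 0.92 for the immediate early list, beside 0.20 for all genes. The immediate early list thus had the opposite sign to that in cKO cells. Of the 12 leading genes, 10 on the high side and 4 on the low side kept their sign. With batches joined, 6 of the high side, Pln (1.86) and Lama4 (1.56) among them, and 1 of the low side, Wnt2 (-1.16), were past 1. The share of all genes past 1 in this split was not taken, so nothing is read from these counts. In batch 2 of the control split, Pln differed by 1.06, Lama4 by 0.33 and Wnt2 by -1.36.

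As checks of the labels, Dgcr8 averaged 1.98 ± 2.90 in high and 1.65 ± 2.53 in low cells beside 2.64 in control cells, and was detected in 11 and 10 of 22 cells. Values per gene do not resolve the deleted exon. Xist, which coats an inactive X, averaged 5.10 in high, 4.40 in low and 0.08 in control cells, and Y-linked Ddx3y 0.09, 0.06 and 2.97. These sex-linked transcripts thus separated cKO from control cells, but high from low cells much less.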

How the data were processed

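The authors mapped Smart-seq2 reads of single cells with Salmon against mm10 and deposited TPM per gene, which is scaled to a fixed total per cell, so sequencing depth is unknown. The Salmon version and annotation are not given in the sources used here. All 143 columns, of 170 labelled samples, were matched to samples by title. Reads carry no molecular identifiers. Cells were picked by hand and no doublet caller was run.

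TPM was used as log2(TPM + 1). The gate was 8.5. Genes with TPM above 0 in more than 10 cKO cells past the gate were kept, and the 5 ranking and 13 gate genes were left out of counts. The pseudocount understates differences of low genes. Members and gene lists were chosen with earlier results of these data known. Named were the ranking and gate genes, genes of the cardiac lists (ventricular, atrial, trabecular, transcription factor, sarcomere, calcium), the 12 leading genes per side (detected in at least 11 high or low cells, without rRNA, Gm and Rik names), the extremes of other lists and Dgcr8, Xist and Ddx3y. Other members of those lists that passed the fold, and the genes compared in pairs, were chosen after their values were seen. Some list members are not reported here. Intervals are exact Clopper-Pearson (95%), and a count of 0 allows 3 cells. RefSeq promoters within 500 bases of a GENCODE principal start were used. Scripts ran in Python 3.11.15, pandas 2.3.3 and SciPy 1.17.1 and were tested on simulated data.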

Additional observations from a re-analysis of the deposited data

How the results depend on the processing

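Under 18 alternatives, 59 of 63 named genes past the fold kept their sign. The exceptions were Cacna1c (-1.29 by the log2 ratio of mean TPM), Ube2c (0.086 when ranked over joined batches), Smtn (0.16) and Kif20a (0.031), both when ranked on Irx4 and Hey2. Several alternatives could not turn the sign of such a gene. Genes past the fold had one sign in each batch by rule, which covers the settings with a single batch. Filters on low values leave a gene's difference unchanged, and gates of 8.0 and 9.0 kept the counts at 280 and 346. The median of the mitotic list turned to 0.047 with 8 cells per side and batch and to 0.18 when ranked on Irx4 and Hey2. The cause was not tested. In that ranking 18 batch 2 cells tied at 0 and were taken in column order, and 154 genes were lower. The counts of higher and lower genes were 619 and 792 with a pseudocount of 0.1, 44 and 66 with 10, 145 and 131 with 17 cells per side and batch, 2350 and 897 in batch 1 only and 773 and 2939 in batch 2 only, where one batch had to pass. The ratio of mean TPM gave 556 higher genes, and leaving out 8 cells under 6000 detected genes or over 10% mitochondrial TPM gave 479. The other counts ran from 231 to 365 higher and from 251 to 517 lower, the residuals on detected genes included (316 and 251). Medians kept their sign for other ventricular (0.55 to 1.83), calcium (0.18 to 1.15), replication (0.02 to 0.95), atrial (-1.28 to -0.03) and immediate early genes (-1.84 to -0.64). No paired analysis was possible because a title's number names 1 cell and nothing was tested. With 22 cells a side and unknown depth, a transcript at 0 may be missed rather than absent.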
